A study of Homo sapiens with 12 samples.

Results

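RNA-seq was used to compare transcript abundance in Jurkat cells, a human T cell leukaemia line (Clone E6-1), that were either left non-activated or treated for 5 hr with PMA and ionomycin, which activates them. The 4 RNA-seq samples of the series, of 12 samples in all, make up this comparison: 2 activated and 2 non-activated biological replicates of the same line, which carry no introduced allele. The other samples are PAR-CLIP libraries, in which RNA crosslinked to the translation initiation factor eIF3 was sequenced. PMA with ionomycin acts downstream of the T cell receptor (TCR), so receptor engagement and costimulation are not part of this model, and the line is a leukaemia clone rather than a resting primary T cell. Values were deposited as 1 mean TPM (transcript abundance corrected for length and scaled to a fixed total) per transcript and state, so every level below is a mean of 2 replicates with no replicate error, no p-value was computed, and a difference cannot be set against the spread between cultures.

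Of the 146413 transcripts listed in either table, those of 17704 genes had at least 1 isoform typed protein coding, and all isoforms of such a gene were summed. Activated values were multiplied by 6.03, so that coding transcripts had the same total in both states, and non-activated values were left as deposited. Differences are log2 of the activated minus log2 of the non-activated value, each with 0.1 TPM added, which understates the change of genes with low values. They were taken for the 9123 genes whose mean over both states was at least 1 TPM on this scale. A gene is called higher or lower when the 2 values differ at least 2-fold. Of the 9123 genes, 545 were under 1 TPM without activation and passed this minimum through the activated value. The difference of such a gene is positive by this rule, so it could not appear among the lower genes.

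When T cells are activated, protein kinase C and the RAS/ERK cascade switch on immediate early genes such as the FOS and EGR families, calcium activates the phosphatase calcineurin and with it the NFAT factors, and protein kinase C also releases NF-kappaB from its inhibitors. PMA mimics diacylglycerol, the natural activator of protein kinase C, and ionomycin carries calcium into the cell. Early gene products and ERK phosphatases then limit the signal, while cytokines and their receptors, surface receptors and survival genes follow within hours.

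Promoter stretches that carry the binding letters of these factors are shown first, for genes that are described below. They were chosen after the values were seen, among named genes with a match, and are not typical: of the 15 genes with the largest differences, 8 had a promoter window and 0 to 2 of these held each motif. Named genes that were not higher also had matches, such as RCAN1 (CArG box), ADA (NF-kappaB) and P2RY8 (NFAT core). Each stretch is 30 bases of the RefSeq promoter window (GRCh38.p14, printed 5′ to 3′ on the strand of the gene), and the capitals mark the motif.
EGR1 CArG box, chr5:138465364-138465393, plus strand: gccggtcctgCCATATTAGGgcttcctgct
EGR1 CArG box, chr5:138465386-138465415, plus strand: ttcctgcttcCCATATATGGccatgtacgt
IL2RA CArG box, chr10:6062545-6062574, minus strand: atctccctctCCTTTTATGGgcgtagctga
GZMB AP-1, chr14:24634387-24634416, minus strand: ggtggtccactcTGAGTCAtcagctgtggg
VGF CRE, chr7:101165630-101165659, minus strand: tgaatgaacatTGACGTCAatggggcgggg
DUSP2 EGR, chr2:96145525-96145554, minus strand: ccacgtgagggGCGGGGGCGggcgcgggcg
TNFAIP3 NF-kappaB, chr6:137867193-137867222, plus strand: gaaagtcccgtGGAAATCCCcgggcctaca
BIRC3 NF-kappaB, chr11:102317274-102317303, plus strand: ttttgggtcatGGAAATCCCcgagtgggtt
HLA-B NF-kappaB, chr6:31357337-31357366, minus strand: gcgcagcgttgGGGATTCCCcactcccctg

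The CArG box is the serum response factor site, AP-1 is the site of FOS and JUN dimers (TGACTCA or TGAGTCA), CRE is the cyclic AMP response element (TGACGTCA), and EGR is the site of the EGR zinc finger factors (GCGGGGGCG or GCGTGGGCG). The NF-kappaB letters searched were GGG, A or G, any base, then C or T at the next positions and CC at the end, and both strands were read for each motif. Of the 9123 genes compared, 7172 matched a RefSeq promoter window of 300 bases by symbol, among them 598 higher and 91 lower genes. A CArG box stood in 1.17% of the windows of higher genes and in 0.99% of all matched windows, and AP-1 in 3.18% and 2.55%. EGR letters were found in 12.0% of the windows of higher genes against 9.13% of all matched windows, NF-kappaB letters in 15.4% against 14.2%, the NFAT core GGAAAA in 20.2% against 20.3%, and CRE in 3.18% against 3.71%. Among all 27303 RefSeq windows of this length, 1.29% held a CArG box, 4.92% AP-1, 1.98% CRE, 5.70% EGR, 11.9% NF-kappaB and 24.3% NFAT core letters. Among the 91 matched genes past 4-fold higher, AP-1 stood in 6.59% (6 genes), the CArG box in 3.30% (3 genes), EGR letters in 10.99%, NF-kappaB letters in 10.99%, CRE in 2.20% and the NFAT core in 18.7%. For the 91 lower genes the shares were 4.40% for AP-1, 0% for the CArG box, 10.99% for EGR, 15.4% for NF-kappaB, 1.10% for CRE and 12.1% for the NFAT core. None of these shares was tested, several rest on a few genes, and the stretches above describe the letters present there, not occupied sites.

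The make-up of the deposited TPM differed between the states far more than most genes did, and this sets the scale of everything else. Coding transcripts held 9.24% of all TPM in non-activated and 1.53% in activated cells, totals of 92357 and 15310 TPM. TPM is corrected for length, so very short entries such as FP236383.10 (57 nt) weigh heavily, and these are not shares of the sequenced RNA. Over transcripts of at least 300 nucleotides, coding transcripts held 30.2% and 7.87%. A group of 21 transcripts named after the genomic clones FP236383, FP671120 and CH507-513H4 took 52.4% of the TPM without activation and 85.2% with it. Of these, CH507-513H4.3, CH507-513H4.4 and CH507-513H4.6 are annotated on the minus strand of chromosome 21, inside the RefSeq spans of the ribosomal RNA genes RNA45SN1, RNA45SN3 and RNA45SN2, and the quantification does not use strand. For example, CH507-513H4.6 spans chr21:8210384-8211306 (GRCh38) within RNA45SN2 at chr21:8205988-8219302. The mitochondrial ribosomal RNAs MT-RNR1 and MT-RNR2 together took 1.49% and 5.46%. The libraries were made after ribosomal RNA removal, so these shares follow what that step left as well as what the cells held, and these cannot be told apart here.

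**Figure D1:**
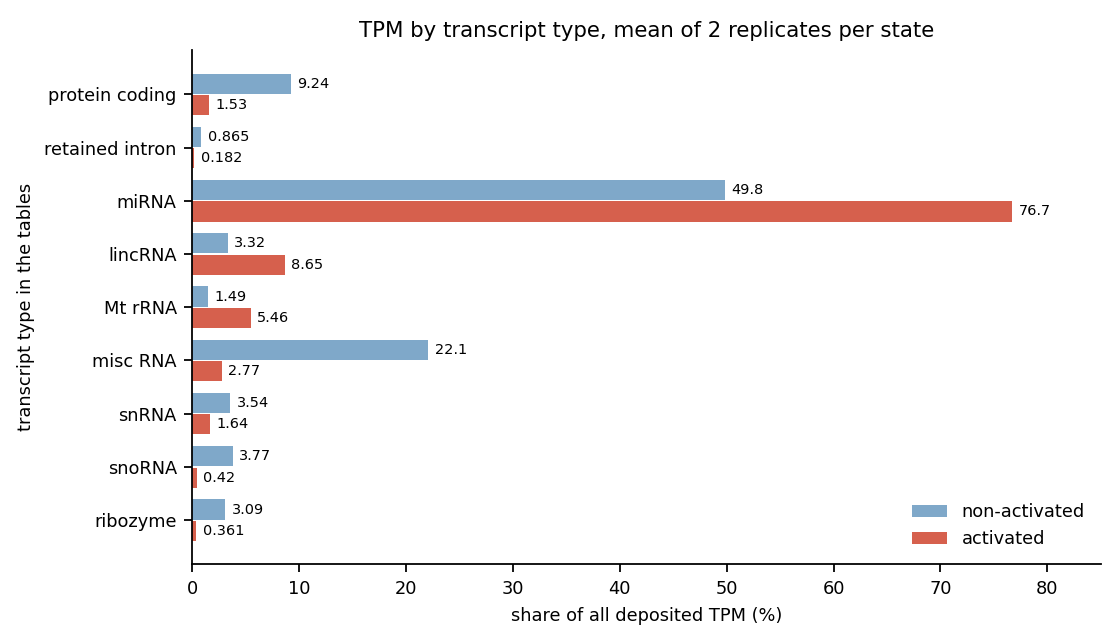
Share of all deposited TPM (x axis, percent) held by each transcript type (y axis) in non-activated and activated cells, each bar a mean of 2 replicates. Entries typed miRNA, mostly the short clone-named transcripts, went from 49.8% to 76.7%, while coding transcripts went from 9.24% to 1.53%.

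Other abundant noncoding RNA types differed less or in the other direction relative to coding RNA. The misc_RNA type, which includes the signal recognition particle RNA RN7SL1 and the transcription regulator RN7SK, had a log2 difference of −0.40 after rescaling, snoRNAs −0.57 and ribozymes (RMRP and RPPH1) −0.50. Spliceosomal and other snRNAs stood at 1.49. In contrast, lincRNAs, led by the CH507 entries, stood at 3.97 and mitochondrial rRNAs at 4.47. Without rescaling, 7202 of 7344 genes would be called lower and 18 higher, so every direction given here is relative to the coding total.

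The number of reads behind a value could be estimated from the values themselves. In genes with 1 isoform, low TPM values multiplied by transcript length piled up at regular steps, as whole reads would, and each state had a pair of step sizes in a ratio of 1.21 without and 1.68 with activation. From these steps, coding transcripts rested on about 63700000 reads in non-activated and about 8770000 in activated cells, both replicates together. These estimates were used to judge low values; they hold no information on either replicate's level.

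Across the 9123 genes, the median log2 difference was 0.26, and the middle 50% of genes lay between −0.09 and 0.59. Of them, 806 genes were higher (8.83%) and 134 were lower (1.47%) in activated cells. Among the 806, 281 were under 1 TPM without activation and so passed the minimum through the activated value. At least 4-fold differences were found for 149 higher and 4 lower genes, and at least 8-fold for 56 higher and 0 lower genes. The balance depends on the reference: relative to the median gene, 454 genes were higher and 335 lower. In a bulk measurement, more RNA per cell and more cells that express a gene cannot be told apart.

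**Figure D2:**
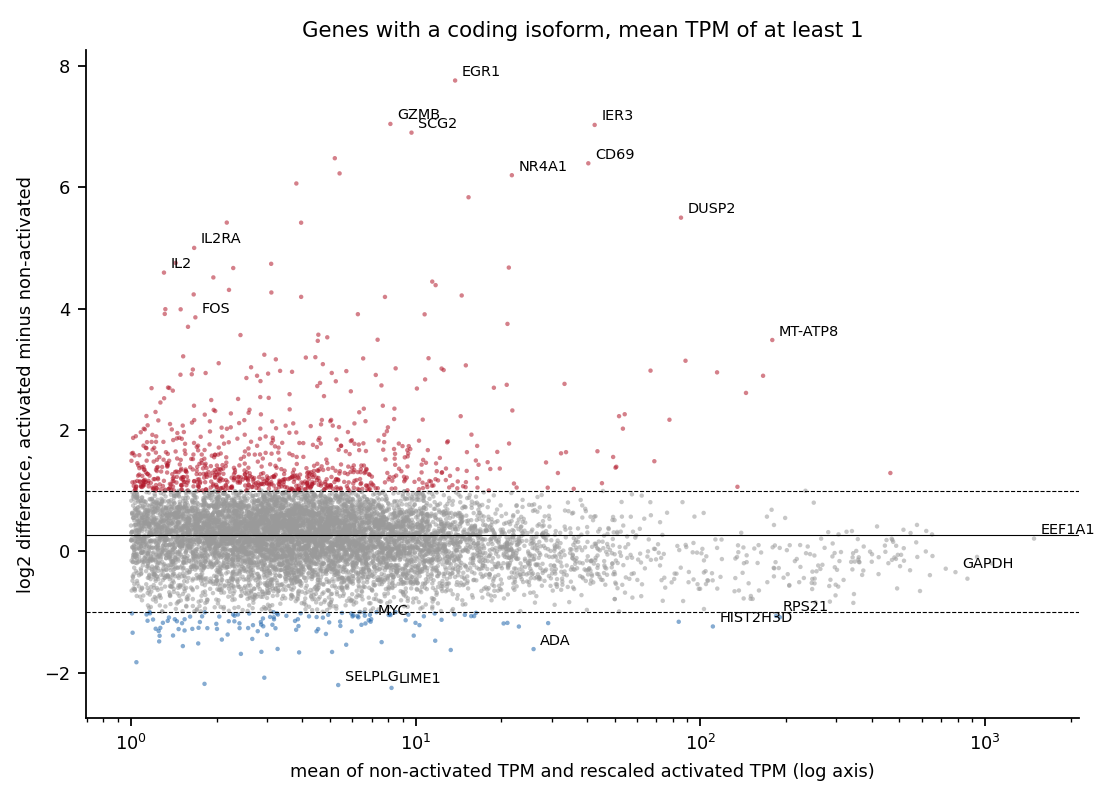
Log2 difference (y axis, activated minus non-activated) against the mean of the non-activated TPM and the rescaled activated TPM (x axis, log scale) for 9123 genes. Red points are the 806 higher and blue points the 134 lower genes, dashed lines mark 2-fold, and the solid line is the median gene at 0.26.

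EGR1, an immediate early zinc finger factor, had the largest difference of all genes compared. Its level was 0.0271 TPM without and 27.5 rescaled TPM with activation, a log2 difference of 7.76. About 49 reads stood behind the lower and 6064 behind the higher value. The other early regulators near the top of the ranking were IER3, NR4A1 and ZFP36L1. IER3, an early response gene that modulates survival and ERK signalling, went from 0.547 to 84.5 (7.03), and NR4A1, an orphan nuclear receptor induced by TCR signals, from 0.487 to 43.1 (6.20). ZFP36L1, which binds AU-rich elements and destabilises mRNAs, went from 0.431 to 30.2 (5.84). FOS, the AP-1 subunit, went from 0.130 to 3.24 (3.86), and JUN did not reach a mean of 1 TPM, with 0.317 and 0.592.

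Of 30 immediate early genes listed, 17 could be compared, and 13 were higher and 1 lower, where 8.83% and 1.47% of all genes were. Of the 13, 8 were under 1 TPM without activation and so passed the minimum through the activated value, which fixed the direction of their difference. Their median was 2.04 beside 0.26 for all genes, and −0.55 on the deposited values with no rescaling. The 13 left out had low values in both states, such as EGR2 with 0.0108 and 1.32 TPM and NR4A3 with 0.0182 and 1.33 TPM. MYC, a growth regulator that is often grouped with the early genes, was the member that was lower, from 9.60 to 4.37 TPM (−1.12). With a pseudocount of 1 this became −0.98, under the 2-fold line.

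Feedback regulators of ERK had the highest median among the 30 lists with at least 3 genes compared, 2.48 over 10 of 20 genes, of which 8 were higher and 0 lower. Of the 8, 6 were under 1 TPM without activation. DUSP2, a nuclear phosphatase that inactivates MAP kinases, went from 3.60 to 167 TPM (5.50), the highest activated level among the leading genes. DUSP5, which is specific for ERK, went from 0.132 to 6.09 (4.74), and DUSP10, which prefers p38 and JNK, from 0.287 to 2.41 (2.70). SPRY4, a Sprouty inhibitor of RAS signalling, went from 0.0680 to 2.57 (3.99), and ETV5, an ETS factor transcribed downstream of ERK, from 0.141 to 3.03 (3.70). TRIB1, a pseudokinase that guides protein degradation, is not in this list but is among the 15 largest differences. It was at 0.00977 and 2.86 TPM (4.75), with about 13 and 527 reads. The median of the ERK feedback list was 1.39 with a pseudocount of 1. On the deposited values 2 members, DUSP2 and RASGRP1, reached a mean of 1 TPM, so the list could not be assessed with no rescaling.

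Among the kinases upstream, differences were smaller. Of 29 protein kinase C, MAP kinase and RAS pathway genes, 6 were higher and 1 was lower, with a median of 0.54. Over all genes, 8.83% were higher and 1.47% lower, and 1 of the 6 was under 1 TPM without activation. MAP2K3, the kinase that activates p38, went from 1.57 to 10.3 TPM (2.64) and PRKCE, a protein kinase C isoform that does not need calcium, from 0.596 to 3.36 (2.31).

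Surface receptors of activated T cells were higher in 12 of 17 genes compared, of 30 listed, and lower in 0, with a median of 1.74, or −0.80 with no rescaling, and 5 of the 12 were under 1 TPM without activation. CD69, the early activation antigen that keeps T cells in lymphoid tissue, went from 0.850 to 79.9 TPM (6.40). IL2RA, the inducible chain of the interleukin-2 receptor, was at 0.00699 TPM without and 3.33 with activation. These values rest on about 13 and 485 reads, which gives a log2 ratio without pseudocount of 8.90 with a 95% exact (Clopper-Pearson) interval of 8.11 to 9.81 for counting error alone. The costimulatory receptors ICOS and TNFRSF4 (OX40) went from 0.0776 to 3.25 (4.24) and from 0.345 to 3.72 (3.10). The inhibitory receptor PDCD1 (PD-1), at 0.00981 and 1.94 TPM, missed the minimum mean. So did the inhibitory receptors HAVCR2 (0.200 and 0.891), CTLA4 (0.00092 and 0.0178), LAG3 (0.0144 and 0.0075) and TIGIT (0.0176 and 0.0103).

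Most listed genes for secreted factors and their receptors missed the minimum mean of 1 TPM. IL2, the T cell growth factor whose secretion is the classical readout of Jurkat activation, was at 0.0118 TPM in non-activated and 2.60 in activated cells. This is a log2 difference of 4.60, and with about 5 and 140 reads the ratio without pseudocount was 7.79 with a 95% interval of 6.53 to 9.43. CCL4, a chemokine that attracts immune cells, was at 0.00371 and 4.34 TPM with about 1 and 208 reads, a ratio of 10.19 with an interval of 7.70 to 15.50. LTB, the membrane anchor of lymphotoxin, went from 0.622 to 8.49 (3.57), IL21R, the interleukin-21 receptor, from 0.122 to 4.30 (4.31), and TNFSF10 (TRAIL), a death ligand, from 0.730 to 7.50 (3.19). Of 39 listed cytokine, chemokine and receptor genes, 13 could be compared, with 9 higher, 0 lower and a median of 1.87, or −2.16 with no rescaling. Of the 9, 8 were under 1 TPM without activation. The median was 0.15 among members with a mean of at least 5 TPM. Among members under the minimum, the chemokine XCL2 was at 0.0153 and 1.80 TPM.

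GZMB, SCG2 and VGF, also among the leading genes, belong to none of the signalling lists. GZMB, the granzyme of cytotoxic granules, which was entered in a list of NK cell markers, went from 0.0239 to 16.3 TPM (7.05) with about 11 and 939 reads. SCG2 and VGF, granins best known from neuroendocrine secretory granules, went from 0.0620 to 19.3 (6.90) and from 0.0447 to 10.8 (6.23). About 3267 and 1588 reads stood behind their activated values.

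**Figure D3:**
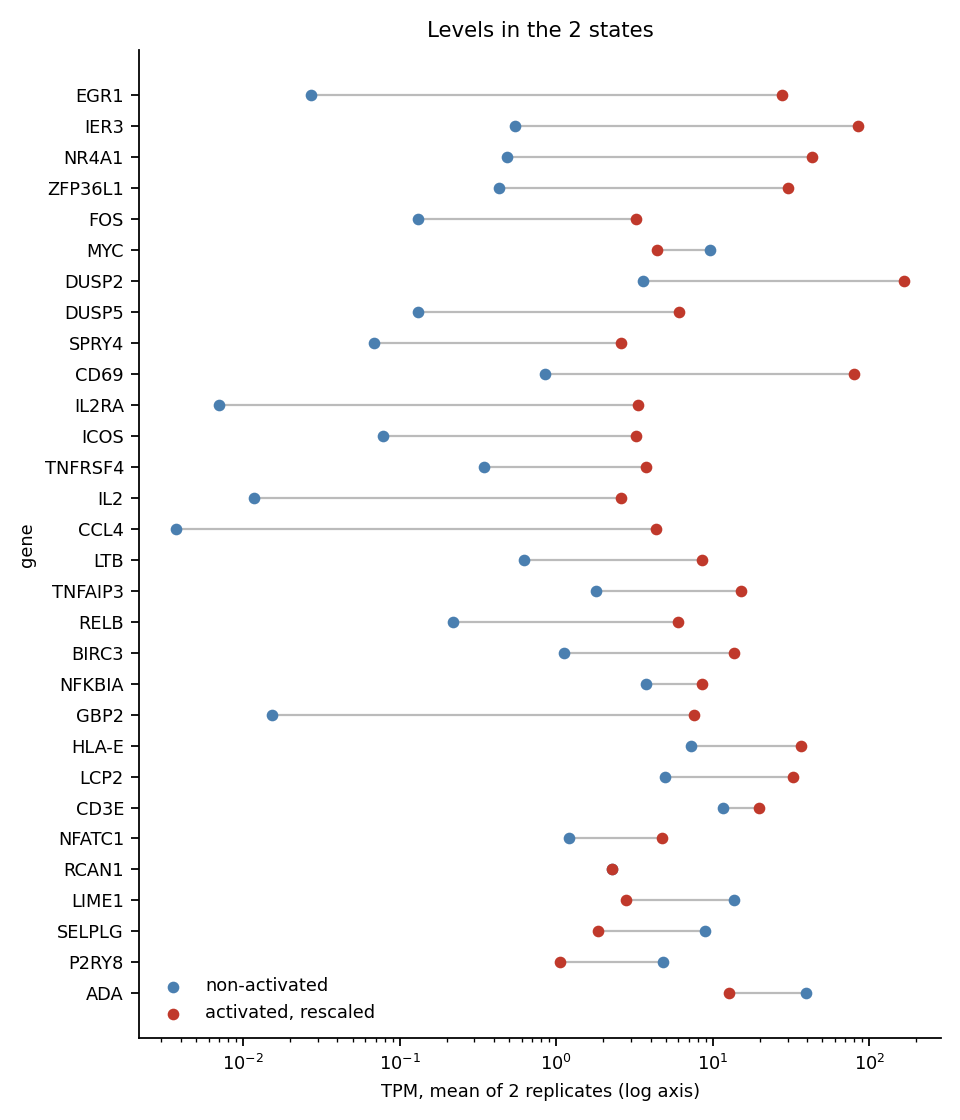
TPM (x axis, log scale) of 30 genes (y axis) in non-activated cells (blue) and in activated cells after rescaling (red), each point a mean of 2 replicates. Among the early, receptor and cytokine genes the activated point lies to the right except for MYC, RCAN1 shows 1 overlapping pair, and LIME1, SELPLG, P2RY8 and ADA lie to the left.

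NF-kappaB genes were higher in 11 of 24 compared and lower in 0, with a median of 0.90, and 4 of the 11 were under 1 TPM without activation. Subunits of the canonical and the non-canonical pathway were among them. RELB went from 0.217 to 6.01 TPM (4.27), REL from 0.627 to 5.44 (2.93) and NFKB1 from 2.09 to 11.1 (2.35). Some inhibitors of the pathway were also higher, while NFKBIE (0.86), TNIP1 (0.60), CYLD (0.33), NFKBIB (0.18) and TNIP2 (−0.20) were not called. TNFAIP3 (A20), a ubiquitin-editing enzyme that ends NF-kappaB signalling, went from 1.79 to 15.2 (3.02) and NFKBIA, the inhibitor that holds NF-kappaB in the cytoplasm, from 3.73 to 8.47 (1.16). NFKBIA was under 2-fold relative to the median gene, at 0.90. TRAF1, an adaptor of TNF receptors, went from 0.0889 to 2.90 (3.99), and BIRC3, a ubiquitin ligase that blocks apoptosis, from 1.12 to 13.6 (3.49).

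Apoptosis regulators were higher in 8 of 24 genes and lower in 1 (median 0.68), and the higher ones included survival and death genes. Of the 8, 3 were under 1 TPM without activation. BCL2A1, a pro-survival BCL2 relative and NF-kappaB target, went from 0.0174 to 10.4 TPM (6.48), with about 8 and 577 reads and a ratio without pseudocount of 9.22 (95% counting interval 8.23 to 10.44). MCL1, another pro-survival member, went from 7.53 to 25.4 (1.74), while BCL2L11 (BIM), which promotes death, went from 0.774 to 2.54 (1.60).

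Calcineurin and NFAT genes moved less as a group, with 4 of 17 higher, 0 lower and a median of 0.28, beside 0.26 for all genes. Of the 4, 2 were under 1 TPM without activation, and 8.83% of all genes were higher and 1.47% lower. PPP3CA, a catalytic subunit of calcineurin, went from 0.317 to 2.30 TPM (2.52), and NFATC1, which NFAT itself can induce, from 1.20 to 4.74 (1.89). RCAN1, a calcineurin inhibitor and widely used NFAT target, was at 2.28 and 2.27 TPM (−0.01). The NFATC1 isoforms were looked at after their values were seen. The coding isoform ENST00000587635.5 (2195 nt) held 4.61% of the gene's TPM without and 23.3% with activation, 0.0554 and 1.11 TPM, while the processed transcript ENST00000590172.1 went from 29.3% to 5.07%.

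The TCR and its proximal signalling machinery were already expressed, and part of it was higher after activation. Of 28 genes compared, 12 were higher and 0 lower, with a median of 0.44, and 2 of the 12 were under 1 TPM without activation. The adaptor LCP2 (SLP-76), which assembles the signalling complex below the receptor, went from 4.96 to 32.7 TPM (2.70). The kinase FYN went from 9.35 to 29.4 (1.64), the ubiquitin ligase CBLB, which dampens TCR signals, from 0.815 to 2.81 (1.67), and PTPN7, a phosphatase that binds ERK, from 25.02 to 73.7 (1.56). The CD3 chains and proximal kinases differed less. CD3D was at 161 and 236 TPM (0.55), CD3E at 11.6 and 19.8 (0.76), the kinase LCK at 67.1 and 63.2 (−0.09) and ZAP70 at 16.0 and 12.1 (−0.39).

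The receptor chains themselves are annotated as segments and constant regions rather than as coding genes, and all constant regions of the alpha and beta chains were higher. TRAC, the alpha constant region, went from 7.96 to 90.4 TPM, 11.2-fold (log2 3.49), on about 3966 and 5586 reads. TRBC1 went from 58.1 to 199 (1.77) and TRBC2 from 18.2 to 51.7 (1.51). On the deposited scale TRAC was also higher, with 7.96 and 15.0 TPM, whereas TRBC1 had 58.1 and 32.9, so the larger difference of the alpha chain does not depend on the rescaling factor. Among alpha variable segments TRAV8-4 held 67.8% of the TPM without and 72.9% with activation, and among beta segments TRBV12-3 held 94.1% and 98.0%. These are the segments known for the receptor of the Jurkat line. TRAV8-4 went from 12.9 to 131 TPM (3.33) and TRBV12-3 from 61.2 to 268 (2.13). The alpha joining segments TRAJ3, TRAJ2 and TRAJ1 went from 11.7 to 235 (4.32), from 3.29 to 43.4 (3.68) and from 2.06 to 53.5 (4.63). Beta joining segments were more evenly spread. With activation TRBJ1-4 led with 21.9% of their TPM, at 213 rescaled TPM, beside 203 for TRBJ1-3, 193 for TRBJ1-5 and 108 for TRBJ1-2. Such segments are very short, 62 nt for TRAJ3, and their TPM depends strongly on how the effective length is set.

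Genes of T cell identity were present in both states, with 3 of 12 higher, 1 lower and a median of 0.13. Over all genes, 8.83% were higher and 1.47% lower. CD5, an inhibitory receptor whose level follows TCR signal strength, went from 3.15 to 12.7 TPM (1.98), the costimulatory receptor CD28 from 4.32 to 14.6 (1.73), and PTPRC (CD45) from 18.3 to 44.9 (1.29). BCL11B, a factor that maintains T cell commitment, went from 2.15 to 0.936 (−1.12), or −0.70 with a pseudocount of 1. For the most abundant coding isoform PTPRC was at 0.86. Markers of other lineages were rare. None of 9 myeloid and 6 erythroid genes, HBB at 0 in both states included, reached a mean of 1 TPM, and 1 of 7 B cell genes (CD79A, 4.82 and 3.41 TPM), 2 of 7 NK cell genes (GZMB, and NKG7 with 2.11 and 1.49 TPM) and 1 of 12 epithelial, fibroblast and endothelial genes (PECAM1, 4.53 and 7.57 TPM) did.

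Lineage transcription factors were higher in 5 of 26 genes and lower in 1, with a median of 0.61, where 8.83% and 1.47% of all genes were. Of the 5, 3 were under 1 TPM without activation and so passed the minimum through the activated value. BACH2, a repressor that restrains effector differentiation, had the largest difference, from 0.695 to 11.8 TPM (3.91). RUNX3, which directs the cytotoxic lineage, went from 0.566 to 2.50 (1.97), GATA3, the Th2 regulator, from 0.540 to 2.37 (1.951), and TOX, a factor of thymic development and exhaustion, from 1.49 to 5.11 (1.71). TBX21 (T-bet), the Th1 regulator, was at 0.0477 and 1.61 TPM and missed the minimum mean.

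Interferon response genes were higher in 10 of 19 compared (median 1.09) and MHC class I presentation genes in 11 of 21 (median 1.25), with 0 lower in either list, while with no rescaling the medians were −1.62 and −1.498. Without activation, 4 of the 10 and 0 of the 11 were under 1 TPM. GBP2, a guanylate-binding protein of host defence, went from 0.0152 to 7.61 TPM (6.06), GBP5 from 0.0856 to 7.84 (5.42) and GBP1 from 3.12 to 26.9 (3.07). The transcription factors that drive such genes also differed, with IRF9 going from 2.64 to 22.0 (3.01) and IRF1 from 8.49 to 58.2 (2.76). IFNG itself, the type II interferon, was at 0.00172 and 0.0939 TPM. In the MHC class I list, NLRC5, its transactivator, went from 2.65 to 17.6 (2.68), HLA-E, the ligand of NKG2 receptors, from 7.22 to 36.5 (2.32), HLA-B from 16.4 to 51.1 (1.64), the peptidase ERAP2 from 4.47 to 16.1 (1.82), the peptide transporter TAP1 from 4.59 to 14.3 (1.61) and the light chain B2M from 269 to 660 (1.29). HLA genes share sequence, and reads may be split between them differently in other quantifications.

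**Figure D4:**
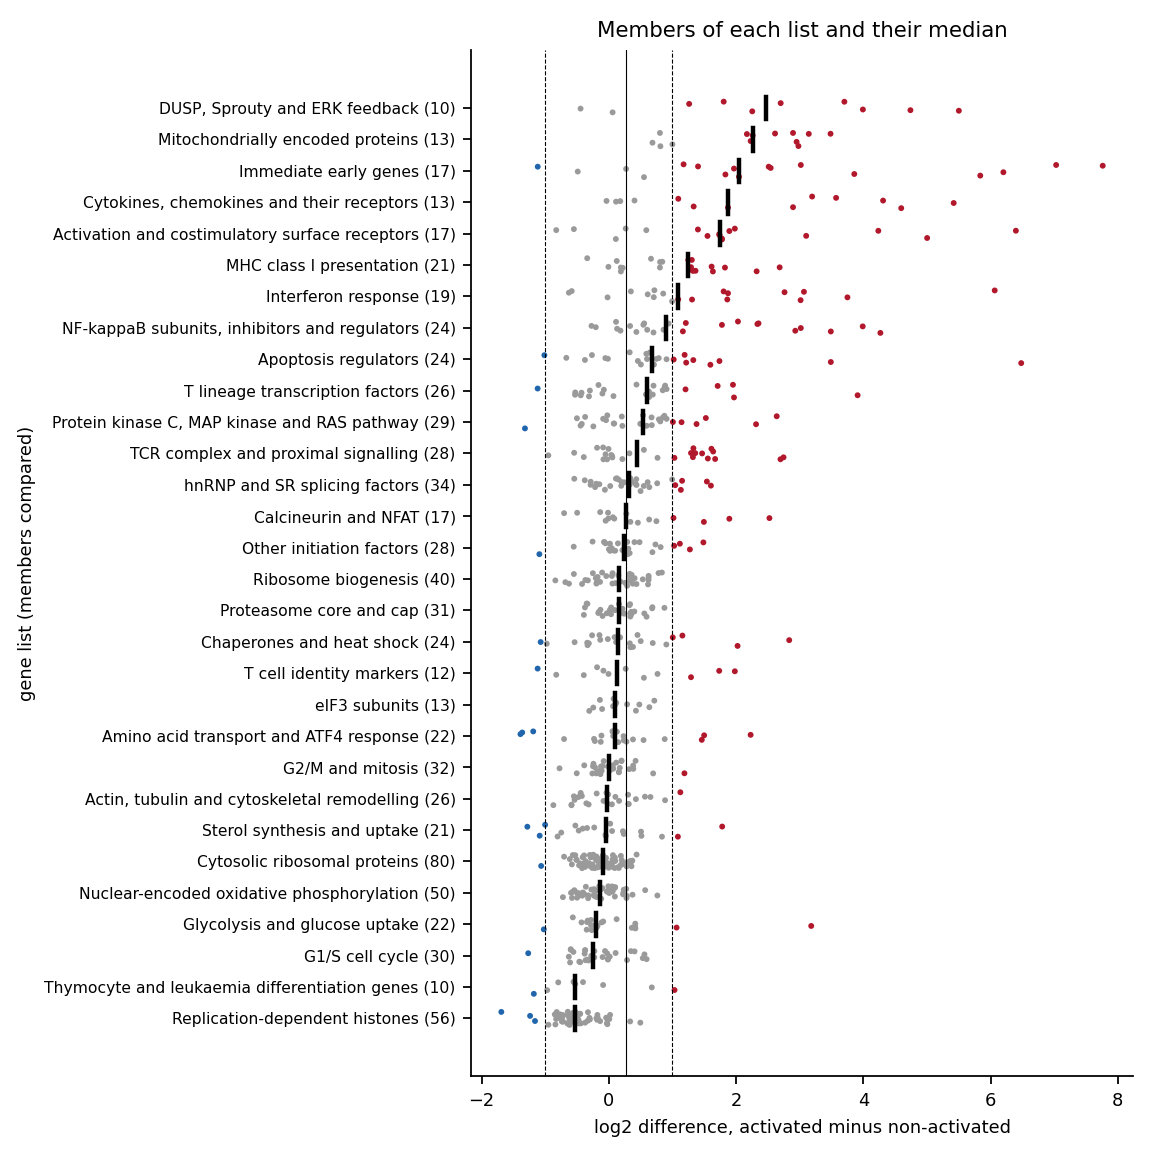
Log2 difference (x axis) of every compared member of 30 gene lists (y axis, number compared in brackets), with the median of each list as a black bar, 2-fold as dashed lines and the median of all genes as a solid line. Lists of ERK feedback, immediate early, cytokine, receptor, MHC class I and interferon genes have medians past 1, as does the mitochondrially encoded list, whereas histone and thymocyte lists lie lowest.

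Genes that were lower after activation differed by less than those that were higher, and the lowest log2 difference was −2.25. LIME1, a membrane adaptor that binds LCK, went from 13.7 to 2.79 TPM, 4.76-fold lower, on about 8689 and 230 reads. SELPLG, the P-selectin ligand PSGL-1 that lets T cells roll on endothelium, went from 8.85 to 1.84 (−2.20), and P2RY8, a receptor that confines lymphocytes to follicles, from 4.82 to 1.06 (−2.08). CTB-133G6.1, a clone-named gene, completed the 4 genes past 4-fold, from 3.04 to 0.590 (−2.18). Among the 15 lowest genes were enzymes of purine metabolism, ADA, adenosine deaminase, from 39.1 to 12.7 (−1.61) and IMPDH1, of guanine nucleotide synthesis, from 4.98 to 1.57 (−1.61). ACSL6, a long-chain fatty acid ligase, went from 1.69 to 0.404 (−1.83) and CRIP1, a LIM domain protein, from 20.1 to 6.45 (−1.63). The others of the 15 were HIST1H3C (−1.69), SH3TC1 (−1.67), MID1IP1 (−1.66), NUDT8 (−1.66), CD3EAP (−1.56), AC087350.1 (−1.54) and LRRC20 (−1.52). With a pseudocount of 1, ACSL6 (−0.94), CD3EAP (−0.95) and LRRC20 (−0.97) were under 2-fold. Of the 15, AC087350.1 rested on about 4 reads in activated cells and HIST1H3C on about 22.

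Thymocyte and leukaemia differentiation genes had a median of −0.54, with 1 of 10 lower and 1 higher, where 1.47% and 8.83% of all genes were. CD1E, of the lipid-presenting CD1 family of cortical thymocytes, went from 29.2 to 12.8 TPM (−1.18) and CD1D from 2.29 to 1.12 (−0.97). SCN3A, a sodium channel subunit, was the higher one, from 2.37 to 4.95 (1.03), and was at 0.77 relative to the median gene. RAG1, the recombinase, was at 0.141 and 0.123 TPM.

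Most housekeeping programmes differed little relative to the coding total, beside a median of 0.26 for all genes, of which 8.83% were higher and 1.47% lower. Ribosomal protein genes, EEF1A1 and GAPDH are among the most abundant genes and enter the coding total used for rescaling. Their small differences therefore follow in part from the scale itself. Cytosolic ribosomal protein genes had a median of −0.10 with 0 of 80 higher and 1 lower, RPS21, from 249.5 to 119 TPM (−1.06). EEF1A1, the elongation factor with the highest mean level of all genes, was at 1376 and 1592 TPM (0.21), RPL41 at 1129 and 983 (−0.20), and GAPDH at 879 and 693 (−0.34). Of 40 ribosome biogenesis genes, 31 proteasome genes and 50 nuclear-encoded oxidative phosphorylation genes, 0 were higher and 0 lower, with medians of 0.17, 0.16 and −0.14. The eIF3 subunits, whose RNA contacts are the subject of the series, had a median of 0.10 with 0 of 13 called. In a list of this size, that count is close to the shares of all genes. EIF3A had the largest difference (5.65 and 9.34 TPM, 0.71), followed by EIF3E (59.8 and 93.0, 0.64).

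Other initiation factors included 4 higher genes and 1 lower among 28 (median 0.24), where 8.83% and 1.47% of all genes were (median 0.26). PABPC1, the poly(A)-binding protein, went from 36.2 to 102 TPM (1.49), EIF4G3, a scaffold of the cap-binding complex, from 1.98 to 4.93 (1.27), and EIF5B, a GTPase of subunit joining, from 1.78 to 3.97 (1.12). EIF4EBP1, the repressor of cap-dependent initiation, went from 6.47 to 2.98 (−1.09). EIF4G3, EIF5B and EIF4EBP1 were under 2-fold with a pseudocount of 1.

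Of the cell cycle genes, 0 of 30 G1/S genes were higher and 1 lower, and 1 of 32 G2/M genes was higher and 0 lower. Over all genes, 8.83% were higher and 1.47% lower. The medians were −0.25 and 0.00, below the 0.26 of all genes, and 8 of the 30 G1/S genes had positive differences. The members past 2-fold were CDKN2D, an inhibitor of CDK4 and CDK6, from 4.59 to 1.85 TPM (−1.27), and the proliferation antigen MKI67, from 6.24 to 14.3 (1.19). Both calls ended under an alternative, CDKN2D at −0.97 with a pseudocount of 1 and MKI67 at 0.92 relative to the median gene. Replication-dependent histone genes, whose mRNAs end in a stem-loop instead of a poly(A) tail and are held in these libraries because poly(A) was not selected, had the lowest median with −0.54, and 3 of 56 were lower. HIST2H3D went from 155 to 65.8 (−1.24) and HIST1H2AB from 116 to 51.8 (−1.16), while HIST1H4J, the most abundant, was at 1001 and 732 (−0.45). These genes are near-identical copies, so the values of single histone genes are uncertain.

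Metabolic lists were mixed, where 8.83% of all genes were higher and 1.47% lower. In glycolysis, SLC2A3, the high-affinity glucose transporter GLUT3, went from 1.22 to 11.9 TPM (3.18) and PKM, pyruvate kinase, from 87.3 to 183 (1.06), while SLC2A1 (GLUT1) was at 4.40 and 2.11 (−1.02), and the median of 22 genes was −0.21. Over coding isoforms alone the difference of SLC2A1 was −0.03, and PKM was at 0.80 relative to the median gene. Amino acid and ATF4 response genes had 3 higher and 3 lower of 22 (median 0.10), with DDIT3 (CHOP), a stress factor, from 5.00 to 23.8 (2.23), SLC7A5, the leucine transporter, from 8.46 to 24.1 (1.498), TRIB3 from 5.75 to 16.0 (1.46), and SLC1A5, a glutamine transporter, from 14.3 to 5.40 (−1.39). Sterol genes had 2 higher and 3 lower of 21, with STARD4, a sterol carrier, from 2.90 to 10.2 (1.78) and the master regulator SREBF1 from 8.60 to 3.99 (−1.09), or −0.94 with a pseudocount of 1.

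Among 24 chaperones, 4 were higher and 1 lower (median 0.15), where 8.83% and 1.47% of all genes were. HSPA5 (BiP) and HSP90B1 (GRP94), the major chaperones of the endoplasmic reticulum, went from 2.58 to 19.02 TPM (2.83) and from 21.04 to 85.8 (2.02), whereas the cytosolic heat shock gene HSPA1B went from 5.76 to 2.69 (−1.07), or −0.87 with a pseudocount of 1. Of 34 hnRNP and SR splicing factors, 5 were higher and 0 lower (median 0.32), led by HNRNPH3 (2.85 and 8.87 TPM, 1.60) and HNRNPA3 (6.17 and 18.2, 1.54). Cytoskeletal genes had 1 higher of 26, VIM, the intermediate filament vimentin, from 28.3 to 61.9 (1.12), or 0.86 relative to the median gene. For the most abundant coding isoform HNRNPA3 was at 0.97.

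The mitochondrially encoded genes were the exception among housekeeping programmes. All 13 had positive differences, 9 were higher, and the median was 2.26, or −0.32 with no rescaling. MT-ATP8, a subunit of ATP synthase, went from 29.3 to 328 TPM (3.48) and MT-ND1, of complex I, from 18.0 to 159 (3.14), whereas MT-CO1, of complex IV, was at 156 and 312 (1.00). The mitochondrial ribosomal RNAs moved with them and by more, with log2 differences of 4.72 for MT-RNR1 and 4.33 for MT-RNR2. The part of library composition in this difference was not tested.

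Among genes with no coding isoform and a transcript of at least 300 nucleotides, 898 reached a mean of 1 TPM, and 205 were higher and 12 lower, with a median of 0.46. In the list of known noncoding RNAs, 6 of 28 compared were higher and 0 lower (median −0.01). MIR4435-2HG and LINC00152, related loci that share sequence, went from 4.11 to 16.95 TPM (2.02) and from 3.12 to 14.3 (2.16). The nuclear RNAs MALAT1, NEAT1 and TUG1 went from 77.5 to 191 (1.30), from 0.778 to 1.93 (1.21) and from 4.57 to 10.6 (1.19). By contrast, the 12 host genes of snoRNAs in the list lay between −0.51 and 0.32. The pseudogene FRG2FP was listed at 0 without activation and at 6.60 rescaled TPM with it, and AP000344.4 was the lowest, from 3.88 to 0.238 (−3.56).

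Isoform use differed strongly in few genes. With at least 5 TPM in each state, 3021 genes could be examined, 2921 of them with several isoforms. The most abundant isoform differed between the states in 564 genes, and in 7 of these the shares of both isoforms differed by at least 25 percentage points. In EZR, the membrane-cytoskeleton linker ezrin, ENST00000367075.3 went from 64.9% to 29.9% of the gene's TPM while ENST00000392177.8 went from 16.8% to 62.2%, and the gene as a whole was at 8.06 and 7.85 TPM. Both are coding, with 3096 and 2933 nt. In CYCS, cytochrome c, the coding isoform ENST00000409764.5 went from 48.0% to 21.7% and ENST00000409409.5 from 16.5% to 44.5%. In C4orf3 the share of a short coding isoform of 667 nt went from 61.4% to 29.5%, and that of a 2960 nt isoform from 38.6% to 70.5%.

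The remaining switches were less clear. In CCNA2, cyclin A2, the 2 isoforms have the same length of 2797 nt, with shares of 69.6% and 30.4% without and 41.5% and 58.5% with activation. In CCNH, the CDK7 partner cyclin H, the leading transcript went from a coding isoform (42.3% to 16.8%) to a retained-intron transcript (2.91% to 29.1%). In MT2A, a metallothionein that binds zinc and copper, a 416 nt processed transcript went from 43.2% to 68.4%, while the gene went from 5.69 to 20.3 TPM (1.81). In MINOS1 both leading transcripts were typed as processed transcripts. With a minimum of 2 TPM, 21 genes met the rule, and with a share difference of 40 points 0 did. Shares of this kind are estimates from reads that several isoforms share and have no replicate error here.

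**Figure D5:**
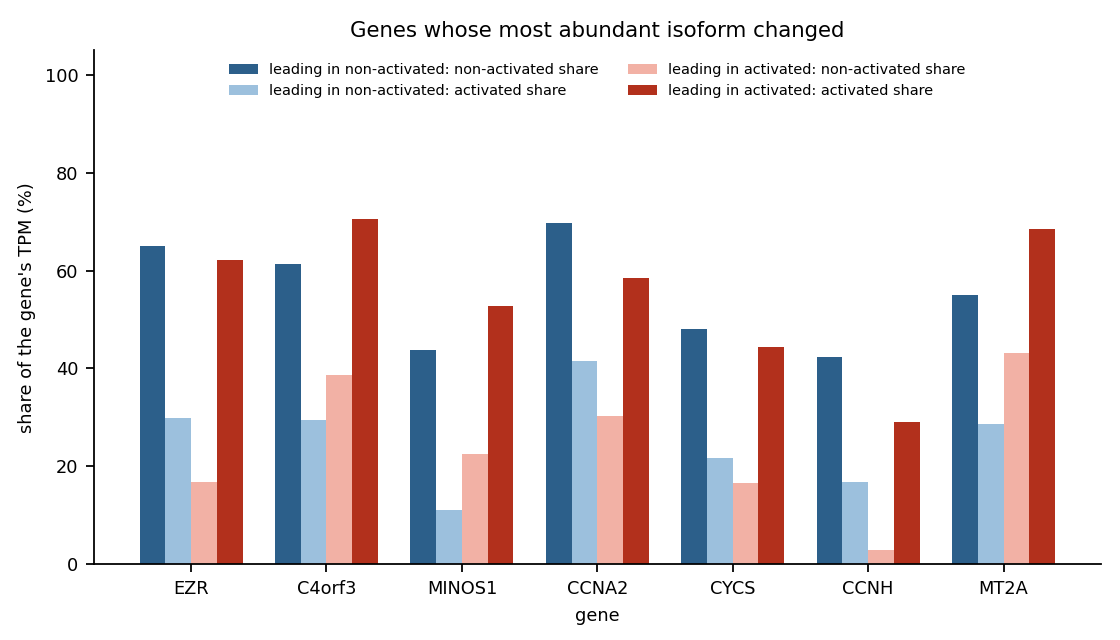
Share of each gene's TPM (y axis, percent) held by the isoform that led in non-activated cells (blue) and by the isoform that led in activated cells (red), dark for the state in which it led, for 7 genes (x axis). In EZR the first went from 64.9% to 29.9% and the second from 16.8% to 62.2%.

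Transcripts that do not encode the full protein took a larger part of gene output after activation. Over the 9123 genes, retained-intron transcripts held 7.45% of the TPM without and 9.01% with activation, processed transcripts 5.82% and 7.39%, and transcripts marked for nonsense-mediated decay 4.15% and 4.85%, while coding isoforms went from 82.5% to 78.7%. The retained-intron share was higher in activated cells in 66.0% of the 5598 genes with such transcripts, and the median change was 1.68 percentage points. It was at least 20 points higher in 85 genes and at least 20 points lower in 26. Among the 2496 such genes with a mean of at least 5 TPM, these counts were 16 and 5, so most large shifts were in genes at lower levels. Examples with at least 5 TPM in each state are VMP1, an autophagy membrane protein, from 6.92% to 39.7%, CCNH, from 15.9% to 41.9%, and, in the other direction, CACYBP, from 55.3% to 26.5%. In CD69 the retained-intron transcripts went along with the coding ones, the larger of them from 0.194 to 16.9 TPM at 22.9% and 21.2% of the gene.

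Differences depended somewhat on transcript length and level. By the length of the most abundant coding isoform, the median was 0.18 in the shortest and 0.46 in the longest of 5 equal bins of genes, with the lowest value, 0.09, in the next shortest. By level, it went from 0.35 in the lowest to 0.07 in the highest of 5 bins, and 13.4% against 6.03% of genes were higher there.

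The PAR-CLIP libraries of the EIF3A/C/B band were set beside these levels, as reads in called clusters per gene. In activated cells, both libraries listed 44.3% of the 806 higher genes, 32.1% of the 134 lower genes and 40.4% of all genes compared. Within low, middle and high activated levels, each with 3041 genes, the higher genes were listed in 24.6%, 44.7% and 62.1% of cases and the lower genes in 19.05%, 45.5% and 70.6%, against 22.9%, 36.6% and 61.9% of all genes. The lower genes numbered 84, 33 and 17 at these levels. The listed share was higher at higher levels in each class. EGR1 had 2005 and 2076 cluster reads in the activated replicates, DUSP2 4261 and 4401, and NR4A1 1099 and 1200, whereas IL2, IL2RA, NFKBIA, LIME1 and SELPLG were not listed in either. The non-activated libraries held 2879 and 2759 reads in clusters against 327859 and 333242 with activation, so a gene that they do not list cannot be compared.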

How the data were processed

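RNA from 2 activated and 2 non-activated Jurkat cultures was sequenced after ribosomal RNA removal. According to the study's methods, the authors trimmed reads with Cutadapt 2.6, quantified transcripts with kallisto 0.46.0 at default settings and deposited the TPM as the mean of 2 replicates per transcript. By default kallisto does not use strand. Overlapping and antisense genes therefore cannot be told apart where they share sequence. The methods name GENCODE release 32, but the symbols are older, and transcripts at 0 are not listed. Of 265 symbols stored as dates, 261 were restored from GENCODE release 44 by transcript ID and 4 transcripts were left out. TPM were summed to genes and activated values rescaled by 6.03 to the non-activated coding total. The pseudocount was 0.1, the minimum mean 1 TPM and the call 2-fold. Reads per value were estimated from the steps of low TPM, which was tested on simulated data, and intervals cover counting error only. PAR-CLIP counts are reads in clusters per gene as deposited by the authors. Other cluster and summary tables were not used. Named genes are the 15 largest and 15 smallest differences, the 10 highest means, the 4 largest differences of each list and genes of known role. Other genes named were chosen after their values were seen. Some genes that the rule selects are not reported here. Members and lists were chosen with earlier results of these data known. Scaling, pseudocount, filters, thresholds and isoform choices were varied. Promoter sequences are from RefSeq (GRCh38.p14). Python 3.11.15, numpy 2.4.6, pandas 2.3.3 and scipy 1.17.1 were used, and figures were drawn with matplotlib 3.10.9.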

Additional observations from a re-analysis of the deposited data

How the results depend on the processing

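No paired analysis was possible because the deposited TPM columns are means of 2 replicates that carry no replicate numbers, and for the same reason no replicate could be left out. The rescaling set the directions. On the deposited TPM with no rescaling, 18 genes were higher and 7202 lower, 0 lists had a median of at least 1 against 7, and 48 of 137 named genes turned negative, 36 of them called higher and 12 not called, as did list medians: immediate early −0.55, activation receptors −0.80, cytokines −2.16, MHC class I −1.498, interferon −1.62 and mitochondrially encoded −0.32. The 36 were NFKBIA −1.35, MCL1 −0.83, BCL2L11 −0.75, NFATC1 −0.56, FYN −0.93, CBLB −0.69, CD28 −0.81, CD5 −0.56, PTPRC −1.29, RUNX3 −0.37, GATA3 −0.37, TOX −0.75, HLA-E −0.25, HLA-B −0.94, ERAP2 −0.72, SCN3A −1.42, PRKCE −0.083, MKI67 −1.36, PABPC1 −1.10, EIF4G3 −1.18, EIF5B −1.31, PKM −1.52, SLC7A5 −1.07, DDIT3 −0.33, TRIB3 −1.09, STARD4 −0.74, SC5D −1.35, HSP90B1 −0.56, HNRNPH3 −0.91, HNRNPA3 −1.01, VIM −1.46, B2M −1.30, NFKB1 −0.18, LAT −1.55, PTPN7 −1.03 and TAP1 −0.93. The higher and lower counts of 806 and 134 became 268 and 12 at 3-fold, 2325 and 570 at 1.5-fold, 454 and 335 relative to the median gene, 386 and 40 with a pseudocount of 1, 507 and 230 for the most abundant coding isoform, 1605 and 243 without a filter, and 242 and 52 at a mean of at least 5 TPM. After seeing the data, 2 alternatives were added: a filter on the deposited mean gave 445 higher genes and 4 lists, and TPM computed over coding transcripts alone in each state gave 2153 higher and 322 lower genes. Isoform switches numbered 21 at 2 TPM, 0 at 40 points and 11 over coding isoforms. The coding share was 30.2% and 7.87% over transcripts of at least 300 nucleotides and 9.31% and 1.58% without mitochondrial transcripts. The retained-intron share was 6.87% and 8.36% at a mean of at least 5 TPM. Counts of higher and lower genes moved by less than 1.5 times without mitochondrially encoded genes, with a pseudocount of 0.01, over coding isoforms and when rescaled over transcripts of at least 300 nucleotides. The causes were not tested.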
